A study of Saccharomyces cerevisiae with 12 samples.

Results

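The genes examined here are 9 genes of budding yeast that take up, break down or make proline and gamma-aminobutyric acid (GABA), with the transcription activators dedicated to them. They were chosen by name from the 7126 features of the expression table as *PUT1*, *PUT2*, *PUT3*, *PUT4*, *UGA1*, *UGA2*, *UGA3*, *UGA4* and *GAD1*, and all 9 were found once. Expression was measured by RNA-seq in 12 libraries that fall into 4 groups of 3. The groups are treated *RRD1* knockout (*RRD1* KO, strain YSC6273-201925697), treated wild type (BY4730), untreated *RRD1* knockout and untreated wild type, where treatment was with rapamycin. All cultures were grown in YPD, a rich medium, to log phase at 30 °C, and treated cultures received 100 nM rapamycin for 50 min. The authors describe no vehicle control and do not state that untreated cultures were grown on for 50 min. An effect of rapamycin therefore cannot be told apart from these. The experiment was repeated on different days, which are not named for single libraries, and titles number the libraries 2, 4 and 6 with rapamycin and 1, 3 and 5 without. The knockout is 1 purchased strain, so an effect of losing *RRD1* and any other difference between the strains cannot be told apart.

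Proline enters the cell through Put4 and is oxidized in mitochondria, first by Put1 and then by Put2, which yields glutamate. Glutamate can in turn be decarboxylated to GABA by Gad1, and GABA, which is also imported by Uga4, is converted to succinate by Uga1 and Uga2. This bypass of part of the tricarboxylic acid cycle is called the GABA shunt. Put3 is the proline-responsive activator of *PUT1* and *PUT2*, and Uga3 is the GABA-responsive activator of the *UGA* genes. Permeases and enzymes of this kind are textbook targets of nitrogen catabolite repression, in which the GATA factors Gln3 and Gat1 are held inactive while preferred nitrogen sources are plentiful. Rapamycin inhibits the kinase complex TORC1 and releases these factors, and Rrd1 is an activator of phosphatases of the PP2A family that act downstream of TORC1.

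*RRD1* was listed at 0 in the 3 knockout libraries with rapamycin, against 67.2 to 85.3 FPKM (fragments mapped to a gene, scaled by its length and by the mapped reads of the library) in the wild type with rapamycin. Without rapamycin it was at 0 to 0.203 FPKM in the knockout, against 47.5 to 72.3 FPKM in the wild type. *LEU2*, *MET17* and *URA3* were listed at 0 in all 12 libraries, and *HIS3*, *LYS2* and *TRP1* were detected in all of them, although *HIS3* was lower in the treated knockout (log2 fold change -0.88, limma adjusted *p* = 0.0052). The a-factor gene *MFA1* set knockout libraries 1 and 2 apart from the other knockout libraries. Library 1 had 198870 FPKM, against 67170 and 88463 FPKM in the other untreated knockout libraries. The untreated wild type had 202270 to 261288 FPKM. With rapamycin *MFA1* was at 320728 FPKM in knockout library 2, against 131465 and 125098 FPKM in the other treated knockout libraries. The treated wild type had 451682 to 629233 FPKM. Libraries 1 and 2 were thus the knockout libraries nearest the wild type in *MFA1*. Between the treated strains its log2 fold change was -1.58 (limma adjusted *p* = 0.026). *MFA2*, the other a-factor gene, did not set library 1 apart. All untreated knockout libraries had 49038 to 53264 FPKM of it, against 52183 to 65688 FPKM in the untreated wild type. With rapamycin *MFA2* was at 57599 to 104285 FPKM in the knockout, against 99259 to 154658 FPKM in the wild type. The results for the 9 genes without knockout libraries 1 and 2 are given after the comparisons. FPKM is a share of each library, so a change in total RNA per cell was not measured. Steps of 1 read among low FPKM values implied 8440000 to 11780000 mapped reads per library, if fragments averaged 200 nt, and 27 reads behind the lowest value of any of the 9 genes. Replicate libraries were not copies of each other, since 152 to 284 of the features tested differed by at least 2-fold within a pair of one group.

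In both strains most of the 9 genes were higher with rapamycin, and in the knockout several reached a lower level than in the wild type. Differences were tested with limma on log2(FPKM + 1) over the 6497 features with a mean of at least 1 FPKM, which included all 9 genes, with *p*-values adjusted by the Benjamini-Hochberg method, and values under 0.01 were counted as calls. In the wild type all 9 genes rose with rapamycin, where 35.9% of all features tested were called higher and 16.3% lower. In the knockout 8 of the 9 rose, where 36.4% of all features were called higher and 10.3% lower, and *PUT3* was the exception. In each strain every treated library was above every untreated one for all 9 genes, as it was for 50.5% of all features in the knockout and 46.3% in the wild type. Between knockout and wild type with rapamycin 6 of the 9 genes were lower in the knockout, against 5.79% of all features called lower, and none was higher, against 8.28%. Without rapamycin 1 gene, *GAD1*, was lower in the knockout, where 0.554% of all features were called lower and 0.0308% higher. The median log2 fold change of the 9 genes between knockout and wild type was -0.94 with rapamycin, beside -0.02 over all features, and -0.08 without rapamycin, beside -0.08 over all features.

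**Figure D1:**
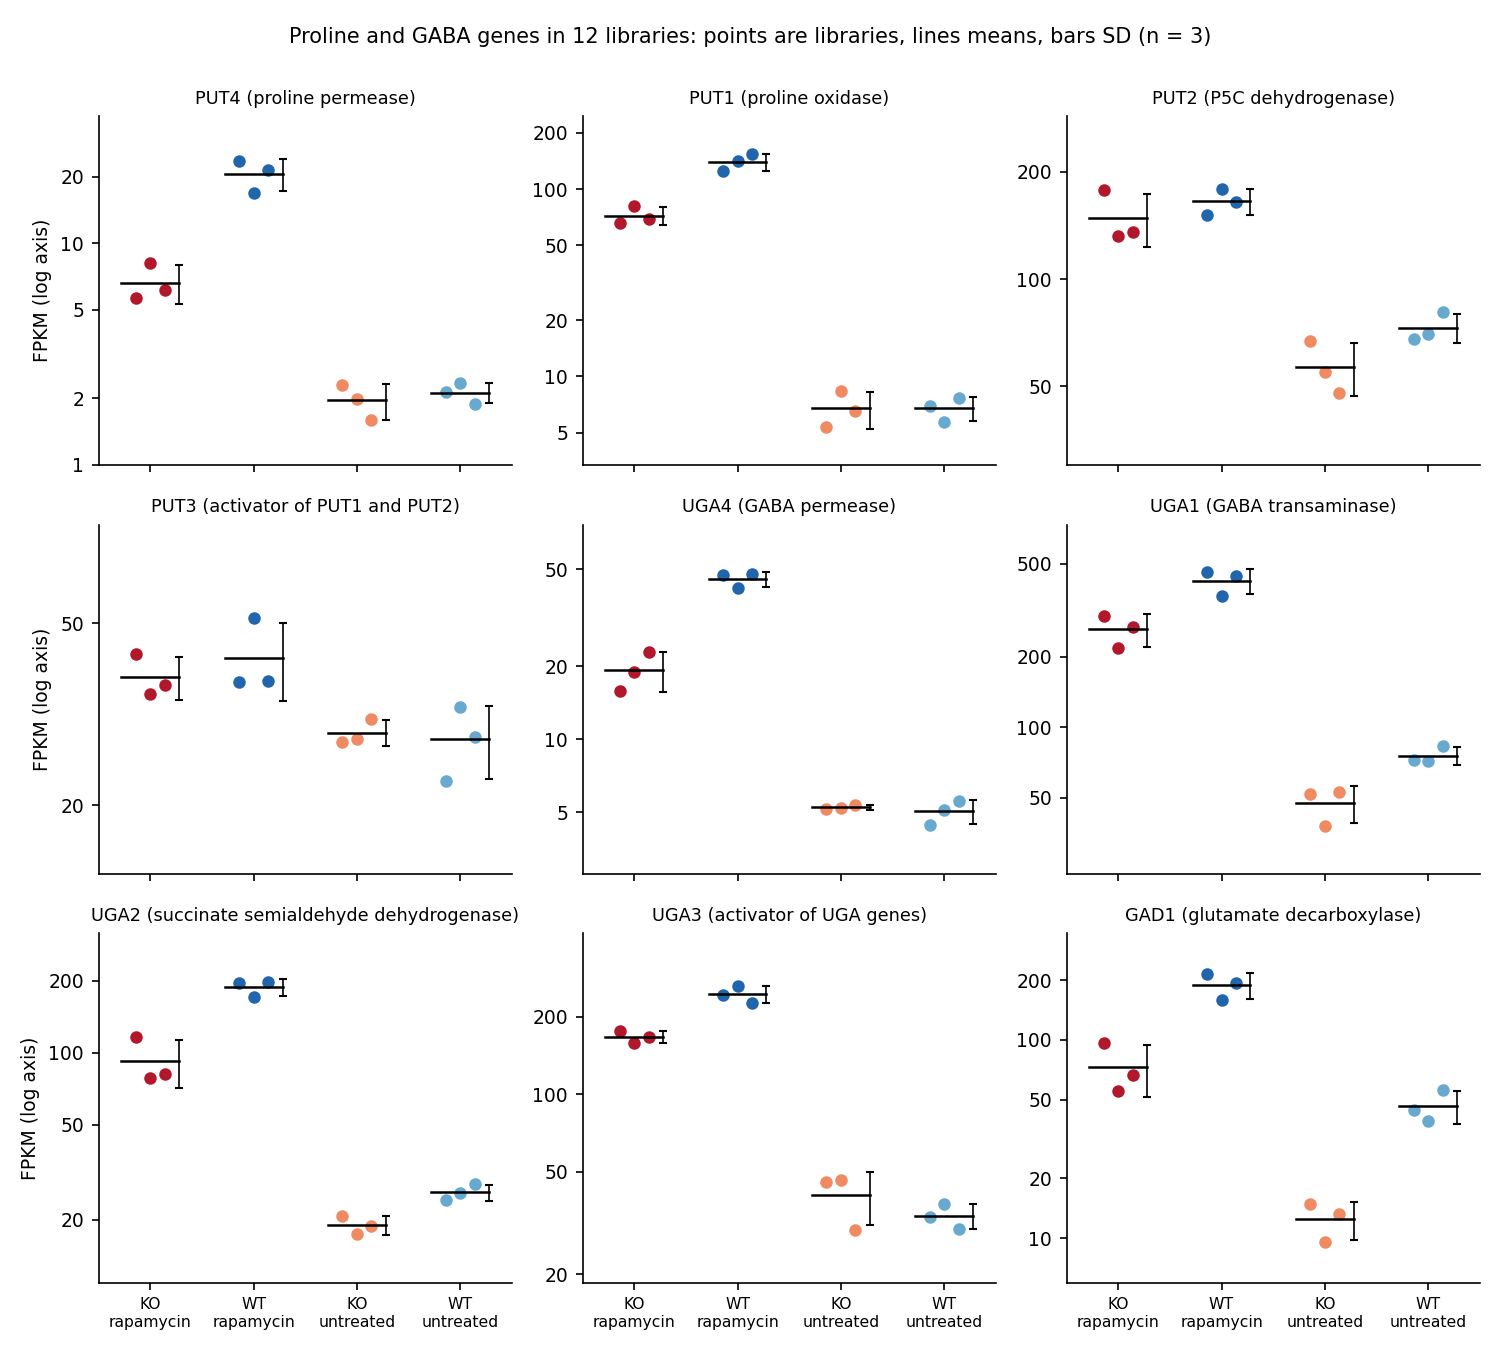
FPKM on a log axis of the 9 genes in each library, with 1 panel per gene and, from left to right, the knockout and the wild type with rapamycin and the knockout and the wild type without it (points, libraries; line, mean; bar, SD, n = 3). In the panels of *PUT4*, *PUT1*, *UGA4* and *UGA3* the untreated strains overlap and the treated strains do not. In the panels of *UGA1*, *UGA2* and *GAD1* the strains are apart in both conditions.

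The rapamycin contrasts depend on how libraries are scaled to each other. As deposited, the median log2 change of all features with rapamycin was 0.34 in the knockout and 0.29 in the wild type, and 77.9% of the calls in the knockout and 68.8% of those in the wild type were rises. With median-ratio scaling the medians were 0.00 and 0.01 and the rises 49.4% and 49.2% of the calls. Under that scaling 8 of the 9 genes still rose in the knockout, where 1289 of the 6497 features tested were called higher. In the wild type 8 of the 9 rose and *PUT3* lost its call, where 1572 of the 6497 features were called higher.

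*PUT4*, the high-affinity proline permease, is listed as YOR348C and occupies 1 exon on the minus strand of chromosome XV (986899 to 988782 in R64). It was at 5.64, 8.14 and 6.14 FPKM in the knockout with rapamycin, against 23.5, 16.9 and 21.5 FPKM in the wild type with rapamycin. In untreated cells it was at 2.30, 1.97 and 1.59 FPKM in the knockout, against 2.14, 2.33 and 1.89 FPKM in the wild type. Every treated knockout library was thus below every treated wild-type library and above every untreated one, while the untreated strains overlapped. With rapamycin the knockout held 32.2% of the wild-type mean (log2 fold change -1.50, standard error 0.19, adjusted *p* = 0.00038). Rapamycin raised the mean 3.40-fold in the knockout (adjusted *p* = 0.00011) and 9.74-fold in the wild type (adjusted *p* = 3.2e-07). The log2 values of this gene understate its change, because 1 is added to FPKM values that are close to it. The calls of *PUT4* were kept in every alternative analysis run.

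*PUT1* encodes proline oxidase, the first enzyme of proline breakdown, and lies on chromosome XII from 425186 to 426616 on the plus strand (YLR142W, 1 exon). Its FPKM was 66.1, 81.1 and 68.9 in the knockout with rapamycin, against 124.3, 140.4 and 153.5 in the wild type with rapamycin. Without rapamycin it was 5.36, 8.38 and 6.54 in the knockout, against 6.92, 5.68 and 7.68 in the wild type. *PUT1* had the largest rapamycin response of the 9 genes in each strain, 10.7-fold in the knockout and 20.6-fold in the wild type on the means (adjusted *p* = 6.4e-08 and 5.6e-09). The treated strains did not overlap and the untreated strains did. With rapamycin the knockout stood at 51.7% of the wild type (log2 fold change -0.94, standard error 0.16, adjusted *p* = 0.0016), a call kept in all alternatives. Without rapamycin the log2 fold change was -0.01 (95% interval -0.36 to 0.34, adjusted *p* = 0.98).

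*PUT2*, on chromosome VIII from 181977 to 183704 on the plus strand (YHR037W, 1 exon), encodes delta-1-pyrroline-5-carboxylate dehydrogenase, which completes the conversion of proline to glutamate. It was at 177.6, 132.0 and 136.0 FPKM in the knockout with rapamycin, against 151.7, 179.6 and 164.8 FPKM in the wild type with rapamycin. The untreated levels of *PUT2* were 66.8, 54.7 and 47.9 FPKM in the knockout, against 67.9, 70.1 and 81.0 FPKM in the wild type. *PUT2* was already abundant in rich medium and rose less than *PUT1*, 2.63-fold in the knockout and 2.27-fold in the wild type (adjusted *p* = 1.5e-05 and 3.7e-05). The treated strains overlapped, with a log2 fold change of -0.16 (95% interval -0.49 to 0.16, adjusted *p* = 0.47). The untreated strains did not overlap, yet their log2 fold change of -0.37 was not called (adjusted *p* = 0.19).

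*PUT3*, the activator of *PUT1* and *PUT2*, lies on chromosome XI from 408544 to 411483 on the plus strand (YKL015W, 1 exon). Its FPKM was 42.8, 35.0 and 36.7 in the knockout with rapamycin, against 37.3, 51.4 and 37.4 in the treated wild type. The untreated levels of *PUT3* were 27.6, 27.9 and 31.0 in the knockout, against 22.6, 32.8 and 28.3 in the wild type. The strains overlapped in both conditions, with log2 fold changes of -0.12 with rapamycin (95% interval -0.47 to 0.22, adjusted *p* = 0.62) and 0.06 without (95% interval -0.29 to 0.41, adjusted *p* = 0.88). The mRNA of the activator was thus raised little in comparison with that of its target *PUT1*. In the wild type it rose 1.51-fold (log2 fold change 0.57, adjusted *p* = 0.0077), and in the knockout its 1.32-fold difference was not called (log2 fold change 0.39, adjusted *p* = 0.051). The wild-type call was lost with median-ratio scaling (log2 fold change 0.29, adjusted *p* = 0.098) and with quantile normalization (0.29, adjusted *p* = 0.068). It was also lost without wild-type library 1, 4 or 5 (log2 fold change 0.44, 0.42 and 0.59, adjusted *p* = 0.031, 0.033 and 0.018). The log2 fold change stayed at 0.57 but the call was lost without knockout library 1, 3, 4, 5 or 6 (adjusted *p* = 0.0109, 0.0116, 0.0103, 0.0104 and 0.0113), without knockout libraries 1 and 2 together (0.0123) and with the wild-type libraries fitted alone (0.0331).

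The upstream sequences of *PUT1* and *PUT2* are shown because both are targets of Put3 and rose with rapamycin in both strains, by 10.7-fold and more for *PUT1* and by 2.27-fold and more for *PUT2*. Sequences are from RefSeq (build R64), read 5′ to 3′ on the strand of the gene, and capitals mark the fixed letters of a Put3 motif (CGG and CCG with 10 bases between them) or of the GATA factor motif (GATAAG, here on the opposite strand as CTTATC). The first *PUT1* stretch is chrXII:424866-424930, the second chrXII:424966-424996, and that of *PUT2* is chrVIII:181777-181836.
PUT1 with Put3 motifs: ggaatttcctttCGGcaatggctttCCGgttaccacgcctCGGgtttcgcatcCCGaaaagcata
PUT1 with GATA motif: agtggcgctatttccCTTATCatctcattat
PUT2: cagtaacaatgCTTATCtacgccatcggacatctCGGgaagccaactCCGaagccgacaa
*PUT1* held the Put3 motif at 308 and 280 bases before its start codon and *PUT2* at 166 bases, and each had 1 GATAAG. In 500 bases upstream of 6000 protein-coding genes, 2.65% held the Put3 motif and 22.8% held GATAAG on either strand. The windows of *PUT1*, *PUT2* and *UGA2* reach into the next gene, with gaps of 411, 216 and 462 bases before their start codons. A match of letters is a description of the sequence and not of binding.

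*UGA4*, the GABA permease, lies on chromosome IV from 84270 to 85985 on the plus strand (YDL210W, 1 exon). It was at 15.8, 18.9 and 22.9 FPKM in the knockout with rapamycin, against 47.4, 41.7 and 47.7 FPKM in the wild type with rapamycin. Without rapamycin it was at 5.17, 5.19 and 5.37 FPKM in the knockout, against 4.46, 5.13 and 5.59 FPKM in the wild type. As for *PUT4*, the other permease, and for *PUT1* and *UGA3*, the untreated strains overlapped. In all of these genes each treated knockout library lay between the untreated libraries and the treated wild type. The share of all features with this order was not counted. The knockout reached 42.1% of the wild-type mean with rapamycin (log2 fold change -1.22, standard error 0.14, adjusted *p* = 0.00025), and this call was kept in all alternatives. Rapamycin raised *UGA4* 3.66-fold in the knockout and 9.02-fold in the wild type (adjusted *p* = 2.7e-06 and 3.2e-08).

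The stretch upstream of *UGA4*, chrIV:83820-83889, is shown with that of *UGA1*, chrVII:524829-524873, because both are targets of Uga3 and only the first carries a cluster of GATA motifs. Capitals mark the GATA motif on the opposite strand (CTTATC) and the Uga3 motif (CCGCC joined to GGCGG), or, in *UGA1*, its outer letters (CCG and CGG with 4 bases between them), which were searched after the full form had been found in *UGA4* alone of the 9 genes.
UGA4: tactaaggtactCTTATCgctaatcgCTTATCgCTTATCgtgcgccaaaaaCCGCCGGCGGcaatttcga
UGA1: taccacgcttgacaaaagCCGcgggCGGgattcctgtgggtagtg
*UGA4* held 3 matches to GATAAG, 438, 424 and 417 bases before its start codon, next to the Uga3 motif at 399 bases. The full Uga3 motif was present upstream of 4 of the 6000 genes (0.0667%) and the outer letters upstream of 197 (3.28%). Among the 9 genes *PUT1*, *PUT2*, *UGA3* and *UGA4* held GATAAG in this window, beside 22.8% of the 6000 genes. *PUT4*, *PUT3*, *UGA1*, *UGA2* and *GAD1* did not. The 4 genes with these letters within 500 bases rose with rapamycin in both strains, and so did *PUT4*, *UGA1*, *UGA2* and *GAD1* without them. Only GATAAG itself was searched, and not shorter or variant forms, so other GATA sites may have been missed. The gap to the next gene upstream is 1006 bases for *PUT4* and 1374 for *GAD1*, so the window covers only part of it. Any part of the motif in the rise was not tested.

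*UGA1*, on chromosome VII from 525229 to 526644 on the plus strand (YGR019W, 1 exon), encodes GABA transaminase, and had the highest level of the 9 genes in treated cells. Its FPKM was 300.0, 218.1 and 269.5 in the knockout with rapamycin, against 459.0, 363.4 and 443.5 in the wild type with rapamycin. The untreated levels of *UGA1* were 52.1, 37.8 and 52.8 in the knockout, against 72.5, 71.6 and 83.1 in the wild type. The strains were apart in both conditions and by nearly the same proportion, 62.2% of the wild type with rapamycin and 62.8% without. With rapamycin the log2 fold change was -0.69 (standard error 0.16, adjusted *p* = 0.0094), and without rapamycin -0.67 (standard error 0.16, adjusted *p* = 0.048), which is not a call at the threshold used. The response to rapamycin was 5.52-fold in the knockout and 5.57-fold in the wild type (adjusted *p* = 5.5e-07 and 2.1e-07). The call with rapamycin lies at the threshold. The log2 fold change ran between -0.79 and -0.56 when 1 library was left out. Leaving out wild-type library 1, 2, 3, 5 or 6 ended the call (adjusted *p* = 0.0132, 0.0347, 0.0144, 0.0123 and 0.0375), as did leaving out knockout library 1, 4, 5 or 6 (0.0121, 0.0452, 0.0118 and 0.0222). It was kept without wild-type library 4 and without knockout library 2 or 3. With the log2 fold change the same at -0.69, it was also lost with no filter on low values (adjusted *p* = 0.0106), with no mean-variance trend (0.0113) and with the treated libraries fitted alone (0.0295).

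*UGA2* encodes succinate semialdehyde dehydrogenase, the last enzyme of the GABA shunt, and lies on chromosome II from 247010 to 248503 on the plus strand (YBR006W, 1 exon). It was at 116.7, 78.7 and 81.3 FPKM in the knockout with rapamycin, against 195.3, 170.8 and 197.9 FPKM in the wild type with rapamycin. The untreated levels of *UGA2* were 20.7, 17.4 and 18.7 FPKM in the knockout, against 24.2, 25.8 and 28.2 FPKM in the wild type. The strains did not overlap in either condition. With rapamycin the knockout was at 49.1% of the wild type (log2 fold change -1.04, standard error 0.15, adjusted *p* = 0.00059), and without knockout library 2, the highest of its group, the log2 fold change was -1.22 (adjusted *p* = 0.00017). The call with rapamycin was lost when the 6 treated libraries were fitted alone (adjusted *p* = 0.0131). Without rapamycin the knockout was at 72.8% (log2 fold change -0.44, standard error 0.15, adjusted *p* = 0.12). Rapamycin raised *UGA2* 4.86-fold in the knockout and 7.22-fold in the wild type (adjusted *p* = 5.5e-07 and 5.0e-08).

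*UGA3*, the activator of the *UGA* genes, lies on chromosome IV from 156318 to 157904 on the plus strand (YDL170W, 1 exon). Its FPKM was 175.5, 157.5 and 167.0 in the knockout with rapamycin, against 242.4, 263.1 and 226.1 in the treated wild type. The untreated levels of *UGA3* were 45.5, 46.4 and 29.7 in the knockout, against 33.5, 37.6 and 30.0 in the wild type. Unlike *PUT3*, this activator rose in both strains, 4.11-fold in the knockout and 7.24-fold in the wild type (adjusted *p* = 1.7e-06 and 8.5e-08). The treated strains did not overlap, and the knockout was at 68.3% of the wild type. This difference was not called (log2 fold change -0.55, standard error 0.16, adjusted *p* = 0.026), although it was called when untreated knockout library 5, the lowest of its group, was left out of the fit (adjusted *p* = 0.0046). Without rapamycin the strains overlapped (log2 fold change 0.24, 95% interval -0.11 to 0.59, adjusted *p* = 0.43).

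The GATA motifs of *UGA3* are shown because it was the activator whose mRNA rose in both strains. The first stretch is chrIV:155958-155987, with the motif at 346 bases before the start codon, and the second is chrIV:156097-156126, with the motif on the opposite strand at 206 bases. Capitals mark the motif.
UGA3, first motif: gaaaaatacaataaGATAAGgaagaccatc
UGA3, second motif: aaaaatgtgcaaaagCTTATCggagccaat

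*GAD1*, glutamate decarboxylase, lies on chromosome XIII from 770801 to 772558 on the plus strand (YMR250W, 1 exon). It was at 96.7, 55.2 and 66.8 FPKM in the knockout with rapamycin, against 216.0, 159.7 and 193.9 FPKM in the wild type with rapamycin. Without rapamycin it was at 14.8, 9.51 and 13.2 FPKM in the knockout, against 44.1, 39.1 and 56.2 FPKM in the wild type. *GAD1* was the one gene of the 9 that was called lower in the knockout in both conditions, and in neither did the strains overlap. The knockout held 38.4% of the wild-type mean with rapamycin (log2 fold change -1.40, standard error 0.22, adjusted *p* = 0.0012) and 27.0% without (log2 fold change -1.82, standard error 0.22, adjusted *p* = 0.0030). The call without rapamycin was lost without wild-type library 1 or 5 (adjusted *p* = 0.0113 and 0.022) and without knockout library 3 or 5 (0.0203 and 0.0122). With the 6 libraries of a contrast fitted alone, neither call was kept (adjusted *p* = 0.0124 with rapamycin and 0.0339 without). Rapamycin raised *GAD1* 5.82-fold in the knockout and 4.09-fold in the wild type (adjusted *p* = 5.1e-06 and 1.2e-05). The treated knockout was at 72.9 ± 21.4 FPKM and the untreated wild type was at 46.5 ± 8.81 FPKM (SD, n = 3 each), and the libraries of these groups overlapped. Without knockout library 2, the highest of its group, the log2 fold change with rapamycin was -1.62 (adjusted *p* = 0.00070).

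Gad1 is known for a part in stress tolerance as well as in the GABA shunt, and the stretch with its stress element, the AGGGG core bound by the stress factors Msn2 and Msn4, is shown for that reason (chrXIII:770623-770652, capitals mark the core).
GAD1: cggcacaccagaaaaAGGGGatcagtaaag
The core lies 163 bases before the start codon. *PUT4* held AGGGG at 3 places and *UGA4* at 1, and 34.1% of the 6000 upstream windows held it on either strand, so its presence alone is common.

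**Figure D2:**
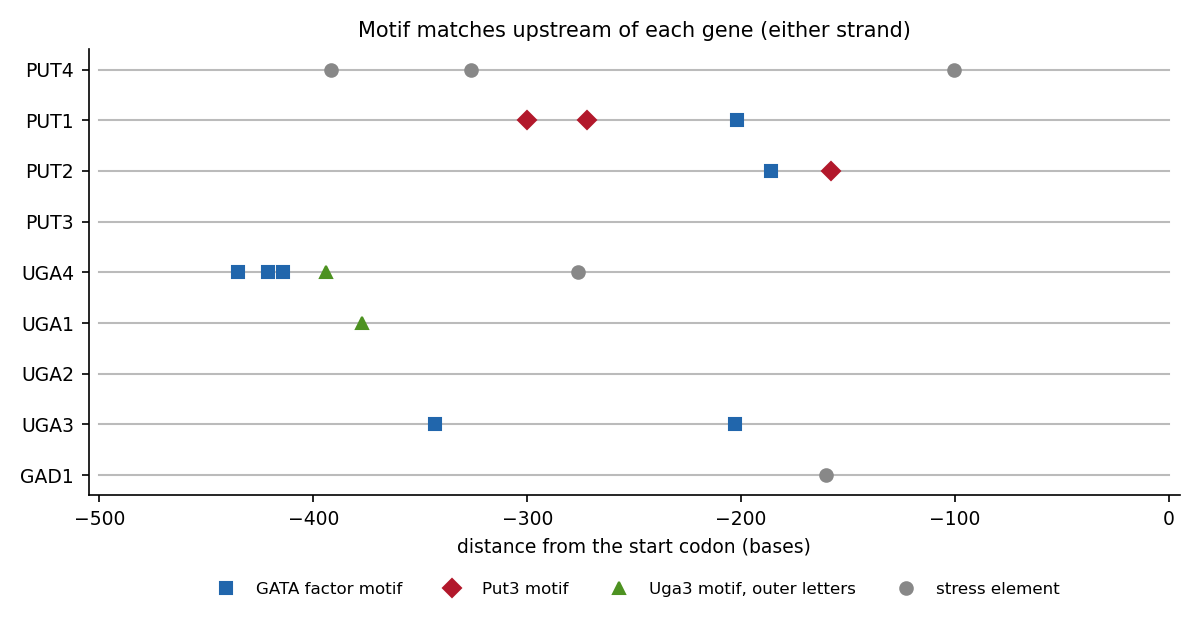
Positions of motif matches on either strand in the 500 bases before the start codon of each gene, with distance from the start codon on the horizontal axis, 1 line per gene and the middle of each match marked. The GATA and Uga3 matches of *UGA4* lie together, with middles between 435 and 394 bases, and the lines of *PUT3* and *UGA2* carry no match.

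The response to rapamycin was set between the strains by the interaction, which is the response of the knockout minus that of the wild type. None of the 9 genes passed the threshold for it in limma, where 0.262% of all features were called. With consecutive library numbers of a strain as pairs, an alternative chosen after seeing the data, again none of the 9 was called, and 83 features were called in place of 17. The lowest limma adjusted *p*-values with these pairs were 0.0113 (*UGA4*), 0.014 (*PUT1*), 0.0208 (*PUT4*), 0.0355 (*UGA2*) and 0.0401 (*UGA3*). In the fit without pairs 5 of the 9 genes and 1092 of the 6497 features had an unadjusted *p* under 0.05. There the permeases came closest to the threshold. *UGA4* had an interaction of -1.27 on the log2 scale (95% interval -1.70 to -0.83, adjusted *p* = 0.015) and *PUT4* of -1.42 (95% interval -2.02 to -0.82, adjusted *p* = 0.030). *UGA4* was called with median-ratio scaling (-1.32, adjusted *p* = 0.00999), with quantile normalization (-1.42, adjusted *p* = 0.0076) and without knockout library 6 (-1.40, adjusted *p* = 0.0089). *PUT1*, *UGA3* and *UGA2* followed with -0.93, -0.78 and -0.60 (adjusted *p* = 0.056, 0.088 and 0.15). For *UGA1* the interaction was -0.01 (95% interval -0.51 to 0.48, adjusted *p* = 0.98), for *PUT3* -0.18 (95% interval -0.67 to 0.31, adjusted *p* = 0.76) and for *PUT2* 0.21 (95% interval -0.25 to 0.67, adjusted *p* = 0.69). *GAD1* had 0.42 (95% interval -0.28 to 1.11, adjusted *p* = 0.57). The strains' responses share no libraries, whereas the interaction and the comparison of treated strains share 6.

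**Figure D3:**
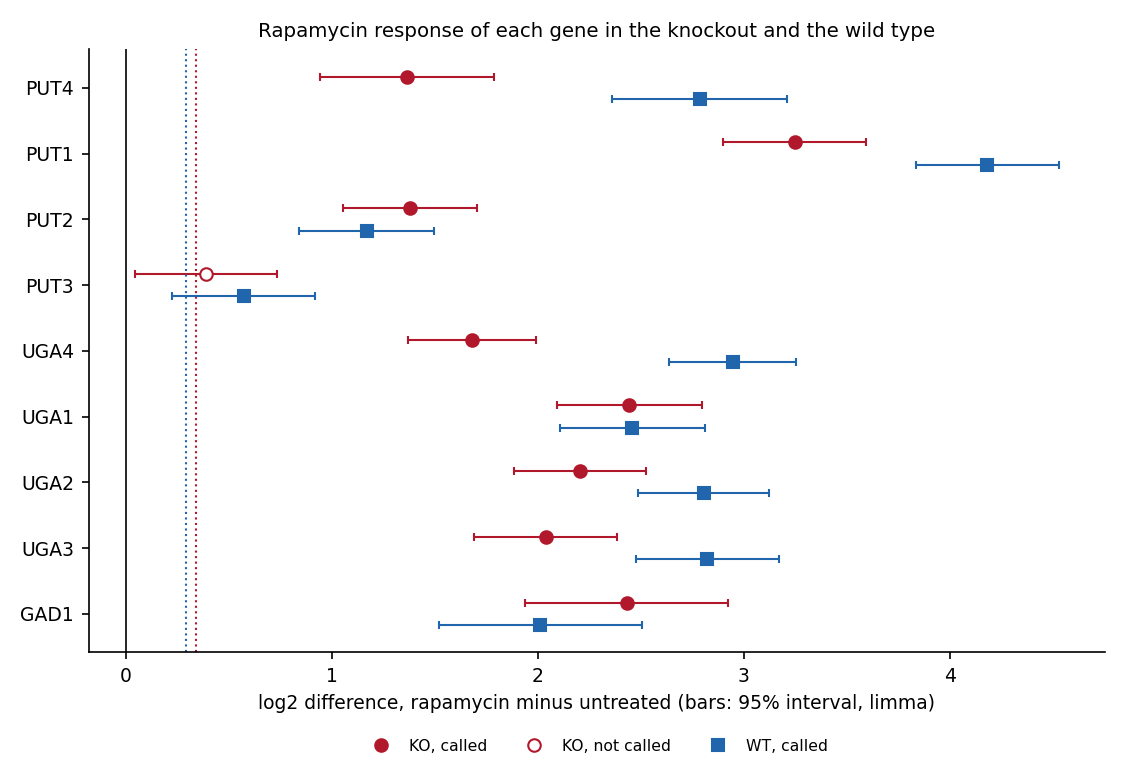
Log2 difference between rapamycin and untreated cells of each gene in the knockout (red circles) and the wild type (blue squares), with 95% intervals from limma and open symbols for values not called. Dotted lines are the medians of all features, 0.34 in the knockout and 0.29 in the wild type. The intervals of the strains do not meet for *PUT4*, *PUT1*, *UGA4* and *UGA3* and overlap for the others, and no interaction passed the threshold.

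**Figure D4:**
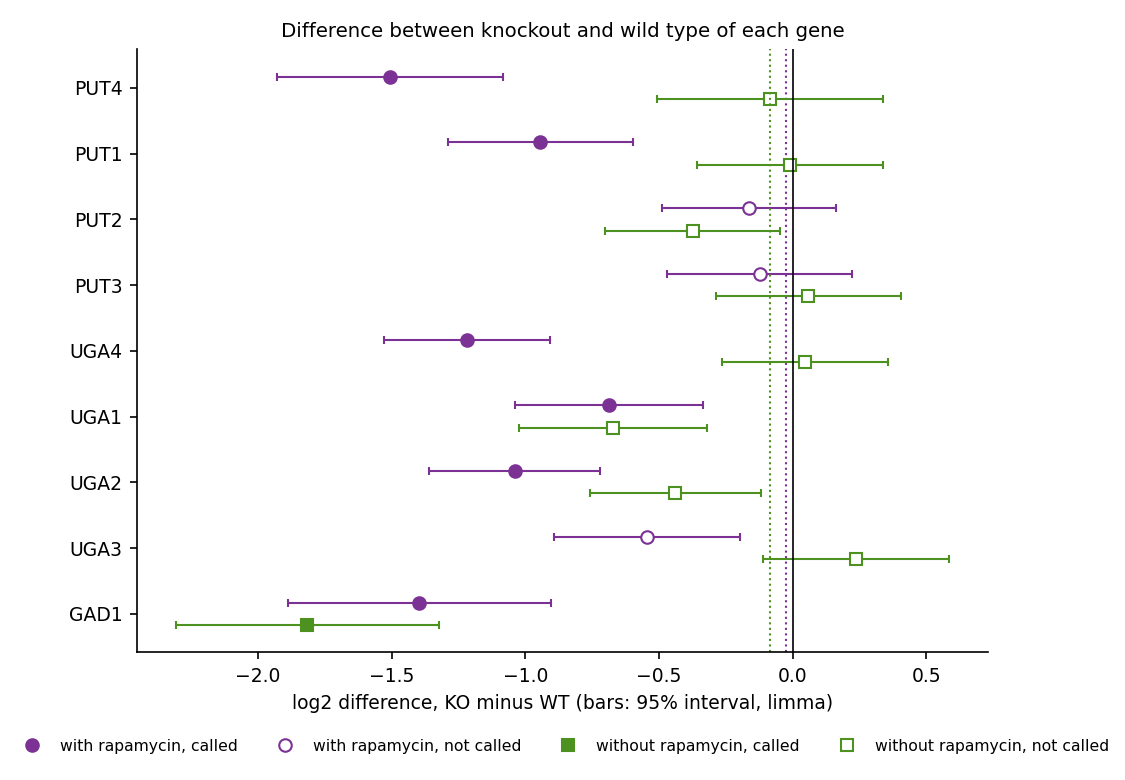
Log2 difference between knockout and wild type of each gene with rapamycin (purple circles) and without (green squares), with 95% intervals from limma and open symbols for values not called. Dotted lines are the medians of all features, -0.02 with rapamycin and -0.08 without. With rapamycin 6 genes are called, all lower in the knockout, and without rapamycin *GAD1* alone.

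Knockout library 2, which stood apart in *MFA1*, was the highest of the treated knockout libraries for *PUT2*, *PUT3*, *UGA1*, *UGA2*, *UGA3* and *GAD1* and the lowest for *PUT4*, *PUT1* and *UGA4*. Without it the log2 fold changes between treated strains were -1.41 for *PUT4*, -0.89 for *PUT1*, -1.09 for *UGA4* and -0.79 for *UGA1*, and all 6 calls were kept. With knockout libraries 1 and 2 both left out, an alternative chosen after seeing the data, 5 of the 9 genes were lower in the treated knockout, where 329 of all features were called lower. *UGA1* was not called there, with a log2 fold change of -0.79 (adjusted *p* = 0.0113). *GAD1* without rapamycin kept its call (log2 fold change -1.94, adjusted *p* = 0.0019). The same 8 genes rose in the knockout, where 1923 of all features were called higher with rapamycin. Their log2 changes lay between 1.37 (*PUT2*) and 3.17 (*PUT1*), and *PUT3* was at 0.28 (adjusted *p* = 0.27). None of the 9 interactions was called, with *UGA4* at -1.15 (adjusted *p* = 0.035), *UGA2* at -0.72 (adjusted *p* = 0.056), *PUT1* at -1.01 (adjusted *p* = 0.060) and *PUT4* at -1.24 (adjusted *p* = 0.071). The part of these libraries' difference in the results was not tested.

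The order of the 4 groups was alike for most of the genes. The treated wild type had the highest mean for all 9 genes and the treated knockout came next. In *PUT2* and *PUT3* these neighbours overlapped, and in the other 7 genes they did not, where 22.7% of all features tested lay lower in the treated knockout without overlap and 18.3% higher. The treated knockout and the group below it overlapped in *GAD1* alone. The shares of all features with this order of means, or apart at this step, were not counted. In 50.5% of all features tested every treated knockout library was above every untreated knockout library. The untreated strains, lowest in the order, overlapped in *PUT4*, *PUT1*, *PUT3*, *UGA4* and *UGA3*, and in *PUT2*, *UGA1*, *UGA2* and *GAD1* the knockout lay lower without overlap, as did 18.9% of all features, with 6.51% higher. FPKM is corrected for length, so levels can be set between genes. In treated cells the means ran between 6.64 ± 1.32 FPKM (*PUT4*) and 262.6 ± 41.4 FPKM (*UGA1*) in the knockout, and between 20.6 ± 3.36 FPKM and 421.9 ± 51.3 FPKM for the same genes in the wild type (SD, n = 3 each).

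Among genes outside the 9, those of proline synthesis and of the route from arginine to proline changed with rapamycin in both directions. In the knockout 3 of the 5 rose and 1 fell, where 36.4% of all features rose and 10.3% fell. In the wild type 4 rose and 1 fell, where 35.9% of all features rose and 16.3% fell. The gene that fell was *PRO1*, the first enzyme of proline synthesis, by 0.77 on the log2 scale in the knockout (adjusted *p* = 0.00030) and fell by 1.27 in the wild type (adjusted *p* = 4.8e-06). With rapamycin *PRO1* was at 73.2 to 82.8 FPKM in the knockout, against 35.8 to 49.5 FPKM in the wild type. It was the only gene of this list called between the strains (log2 fold change 0.85, adjusted *p* = 0.00074). Between the treated strains 8.28% of all features were called higher in the knockout and 5.79% lower. *CAR1*, arginase, rose by 2.26 in the knockout and 2.83 in the wild type on the log2 scale (adjusted *p* = 2.1e-06 and 1.9e-07).

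Of the 3 other permeases that carry proline or GABA, *GAP1*, the general amino acid permease, and *AGP1* rose in both strains. The shares of all features that rose were 36.4% in the knockout and 35.9% in the wild type. *GAP1* was at 684.4 to 956.5 FPKM in the knockout with rapamycin, against 1594 to 1789 FPKM in the wild type with rapamycin (log2 fold change -0.97, adjusted *p* = 0.0017). *GNP1* fell by 1.88 on the log2 scale in the wild type (adjusted *p* = 6.7e-05), and its change of -0.62 in the knockout was not called (adjusted *p* = 0.058). With rapamycin it was higher in the knockout, with 113.2 to 211.6 FPKM, against 42.0 to 76.4 FPKM in the wild type (log2 fold change 1.33, adjusted *p* = 0.0034).

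Of 6 transcription regulators of nitrogen genes, 5 rose with rapamycin in each strain, beside 36.4% of all features in the knockout and 35.9% in the wild type, and *DAL81*, a co-activator of the *UGA* genes, was not called in either (adjusted *p* = 0.49 in the knockout and 0.17 in the wild type). Between the treated strains 5.79% of all features were called lower and 8.28% higher. *DAL80*, a GATA repressor that is itself under nitrogen catabolite repression, was the one regulator called there. It was at 52.9 to 57.0 FPKM in the knockout with rapamycin, against 182.2 to 254.3 FPKM in the wild type with rapamycin (log2 fold change -1.99, adjusted *p* = 0.00013). *GLN3* and *GAT1*, the GATA activators, had log2 fold changes of -0.41 and -0.39 between the treated strains that were not called (adjusted *p* = 0.093 and 0.28).

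All 5 enzymes that make or use glutamate rose with rapamycin in both strains, beside 36.4% of all features in the knockout and 35.9% in the wild type. Of the 5, 2 were lower in the treated knockout, beside 5.79% of all features. *GDH3*, a glutamate dehydrogenase of glutamate synthesis, was at 65.5 to 74.7 FPKM in the knockout with rapamycin, against 261.2 to 305.4 FPKM in the wild type with rapamycin (log2 fold change -2.03, adjusted *p* = 2.7e-05). Its interaction was called (-1.51, adjusted *p* = 0.0098). *GDH1* is a close paralog of *GDH3*, and the counting could have split reads between them. *GDH1* was lower in the treated knockout by a log2 fold change of -0.88 (adjusted *p* = 0.0033).

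The genes most like each of the 9 were found by the root mean square (RMS) difference over the 12 libraries, on log2(FPKM + 1) centred on each gene's mean, which is 0 for genes with the same profile. Nearest to *PUT4* were YHR022C (RMS 0.17) and the allantoin permease gene *DAL4* (0.22), and nearest to *UGA4* were *ORT1* (0.18), the mitochondrial ornithine transporter, and YJL213W (0.20). *PUT1* was followed most closely by *MCH4* (0.21) and *ARG7* (0.22), and *PUT2* by the ammonium permease gene *MEP3* (0.09) and *NSG2* (0.11). For *PUT3*, which moved little, *MGS1* (0.09) and *ULS1* (0.11) were nearest. YLR149C was among the nearest to both *UGA1* (0.17) and *UGA2* (0.16), beside *ATG33* (0.16) for *UGA1* and *SDL1* (0.18) for *UGA2*. *UGA3* was nearest to *SSU1* (0.18) and *CPA1* (0.19), and *GAD1* to *TFS1* (0.22) and *RTC3* (0.24). Within the 9 genes the smallest difference was between *UGA1* and *UGA2* (0.19), followed by the permeases *PUT4* and *UGA4* (0.25), and the largest was between *PUT1* and its activator *PUT3* (1.66). All of these values come from the same 12 libraries.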

How the data were processed

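The deposited values are FPKM, which the authors made from TruSeq libraries of single reads aligned with TopHat and quantified per gene with Cufflinks. Versions, genome build and annotation are not given in the sources used here. Each of the 12 columns was matched to its sample by title, and 0 columns were left unmapped. One limma model (version 3.58.1, R 4.3.3) with a mean for each of the 4 groups, which leaves 8 residual degrees of freedom, was fitted with a mean-variance trend to log2(FPKM + 1) of 6497 features, and *p*-values were adjusted over all of them for each of 5 contrasts. CuffDiff, which the authors used, needs aligned reads and was not run. Alternatives changed scaling, pseudocount, filter, trend, the libraries fitted or a replicate block. Within a strain, libraries with consecutive numbers (1 with 2, 3 with 4, 5 with 6) deviated together from their group means (correlation across genes 0.16 to 0.29), and other combinations did not (-0.17 to -0.044), a pairing from the titles' numbers that was looked for after seeing the data. The scripts were tested on simulated data. Positions and sequences are from the RefSeq copy of R64, joined by locus tag, where 6048 features matched. None of the 9 genes overlaps another R64 gene. Read depth was implied from steps in FPKM, searched between 7000000 and 14000000 reads, and 45.9% to 55.6% of the values used lay within 0.05 of a whole read. The 9 genes and all lists were chosen with earlier results of these data known. Likeness was listed for each called gene, and from the other lists at most 4 genes were named by smallest adjusted *p*; other list genes are named beyond this rule.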

Additional observations from a re-analysis of the deposited data

How the results depend on the processing

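Each contrast of the 9 genes was refitted in 21 alternative analyses, which gave 945 values, and 890 of these kept their direction and their side of the threshold. With only the 6 libraries of the contrast, 3 of the 9 genes (*PUT4*, *PUT1* and *UGA4*) were called between the treated strains and 0 between the untreated strains, and all features called numbered 212 and 1, against 914 and 38. For the interaction, median-ratio scaling and quantile normalization each called 1 of the 9 genes, *UGA4*, and all features called numbered 103 with quantile normalization, 11 with a pseudocount of 0.1 and 7 with no filter or no trend, against 17. Without rapamycin all features called were 25 with no filter and 15 with quantile normalization. Leaving out 1 library gave 5 to 6 of the 9 genes called between the treated strains, 0 to 1 between the untreated strains and 0 to 1 for the interaction, and 423 to 908, 1 to 46 and 1 to 19 of all features.

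Directions turned only for values that were not called. *PUT1* between untreated strains was 0.086 with median-ratio scaling, 0.12 with quantile normalization, 0.12 without knockout libraries 1 and 2, and -0.16 to 0.12 when 1 library was left out. Likewise *PUT4* (-0.17 to 0.0075), *PUT3* (-0.078 to 0.18) and *UGA4* (-0.026 to 0.11) turned between untreated strains, *PUT3* between treated strains (-0.21 to 0.027), and *UGA1* in the interaction (-0.17 to 0.11). *PUT3* with rapamycin in the knockout was -0.045 with quantile normalization. The cause was not tested.

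Deviations of same-numbered libraries of the strains had correlations across genes of -0.17 to 0.13, and those of other combinations -0.12 to 0.17. This check cannot tell whether same-numbered libraries share a day, because these ranges overlap. With the library number as a replicate block 613, 3 and 7 of all features were called between treated strains, between untreated strains and for the interaction. No call of the 9 genes changed. No rapamycin response was tested with this block, because each number belongs to one treatment. With consecutive numbers of a strain as the block, 83 of all features were called for the interaction, and no call of the 9 genes changed for it or for the rapamycin responses.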
